A study of Mus musculus with 27 samples.

Results

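The genes described here encode the proteins of the cytosolic ribosome. They were chosen by symbol alone, as the rows of the deposited expression table whose symbol starts with Rpl or Rps and a digit, or is Rpsa, Rplp0, Rplp1 or Rplp2. The S6 kinase genes (10 rows that start with Rps6k) and 9 rows marked as pseudogenes by -ps were left out. The rule gave 90 of 26264 symbols, of which 54 carry a large subunit symbol (Rpl) and 36 a small subunit symbol (Rps). Of the 90, 2 are not ribosomal proteins by their full names, Rps19bp1 (a protein that binds Rps19) and Rps23rg1 (a retrogene of Rps23), and Rpl32l and Rpl37rt are annotated as processed pseudogenes that are transcribed.

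RNA came from a small block of cortex of about 1 mm3 from each hemisphere of female 5xFAD mice, 16 weeks old, taken 24 h after a microinjection into the cortex of a single hemisphere. All groups carried the 5xFAD transgenes, which are expressed in neurons and lead to amyloid deposits, and no group without the transgenes was analysed here. The injected solution was vehicle in 4 mice, R33 at 10 mM in 5 mice and R55 at 10 mM in 5 mice, both being compounds studied for their stabilization of the retromer, a complex that sorts cargo at endosomes. Each hemisphere gave a library of its own, so vehicle has 8 libraries, R33 has 9 and R55 has 10, and only the R33-treated mouse AE, of 14 in all, enters with its injected hemisphere alone. The study states 6 mice per group. Mice are named by the letters in their labels. The values are FPKM, fragments per transcript length and depth of the library, which had 15932196 to 38077026 counted fragments each.

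A ribosome is built from a small subunit, which reads the mRNA, and a large subunit, which joins the amino acids. Each holds ribosomal RNA and a set of proteins present in a fixed ratio, and cells keep the mRNAs of these proteins at high and matched levels. Most of these mRNAs start with a C and a run of pyrimidines, the terminal oligopyrimidine (TOP) letters, through which the mTOR kinase pathway sets how fast they are translated. In neurons, ribosomes are also found in dendrites and axons, where proteins of synapses are made on site.

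The bases around the annotated start show where such letters are and are not present, so the windows were chosen to show both kinds. Windows of 15 bases before and 15 bases from the start were taken from RefSeq promoters on GRCm38.p6, with entries for 69 of the 90 genes. Capitals mark a C followed by at least 4 letters that are each C or T, searched on the strand of the gene only.
Rps6 (chr4:86857353-86857382, minus strand): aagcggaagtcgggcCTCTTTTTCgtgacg
Rps18 (chr17:33955651-33955680, minus strand): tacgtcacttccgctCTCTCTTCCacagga
Rps10 (chr17:27635230-27635259, minus strand): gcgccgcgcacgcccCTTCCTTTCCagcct
Rpl15 (chr14:18270972-18271001, minus strand): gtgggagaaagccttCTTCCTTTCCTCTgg
Rpl35 (chr2:39005117-39005146, minus strand): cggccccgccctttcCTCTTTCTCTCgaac
Rpl28 (chr7:4792950-4792979, plus strand): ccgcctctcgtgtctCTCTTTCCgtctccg
Rplp2 (chr7:141447636-141447665, plus strand): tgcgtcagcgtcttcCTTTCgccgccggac
Rpl22l1 (chr3:28805493-28805522, plus strand): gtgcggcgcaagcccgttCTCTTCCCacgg
Rpl7l1 (chr17:46782642-46782671, minus strand): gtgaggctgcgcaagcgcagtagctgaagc
Rps19bp1 (chr15:80264292-80264321, minus strand): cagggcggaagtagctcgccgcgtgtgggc
In the first 7 windows a run can be read from the annotated first base on. Capitals start at that base there, although the letter before it is also a C or T. In Rpl22l1 the run begins further in, and in the last pair no such run is present. A run read from the annotated first base on was found in 15 of 69 genes (21.7%), against 3.04% of the 10297 tested genes with an entry. The 69 include genes that were not tested, and of the tested ones 12 had such a run and 50 did not. Anywhere in the window a run was found in 65.2% of the 69 genes and in 43.1% of tested genes. These shares depend on the annotated start being the one in use, and a match is a description of letters, not of translation.

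The ribosomal protein genes were among the more abundant mRNAs of the cortex. Genes were tested where their average across libraries reached 1 FPKM, and 83 of the 90 passed, 50 of the large and 33 of the small subunit, among 12976 tested genes in all. Their median level was 126 FPKM, against 9.32 FPKM for all tested genes, and 52 of the 83 reached 100 FPKM. They are also short, with a median length of 775 bases (390 to 5134) against 3149 bases for all tested genes. Together the 90 genes took 0.783 to 1.84% of the counted fragments of a library. The least covered value of a tested gene rested on 123 fragments (Rps27l) and the largest on 27594 (Rpl4).

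Rplp1, a protein of the stalk to which elongation factors bind, was the highest at a mean of 887 FPKM. Next came Rps29 with 518, Rps15 with 512, Rpl4 with 392 and Rpl8 with 345 FPKM. At the low end of the tested genes stood Rps27l with 13, Rpl29 with 14.7, Rps4l with 15.1, Rpl7l1 with 16.2 and Rps19bp1 with 19.0 FPKM. These are levels on the FPKM scale, per transcript length. The other stalk proteins lay lower than Rplp1, Rplp2 at 273 and Rplp0 at 126 FPKM. Rpl5 and Rpl11, which bind a small ribosomal RNA before they enter the large subunit, were at 65.3 and 95.9 FPKM. Rps27a, which is made as a fusion with ubiquitin, was at 103 FPKM, and Rps6, the substrate of the S6 kinases, was at 61.4 FPKM. Rpsa and Rps3 of the small subunit were at 87.7 and 161 FPKM, while Rpl10, a late-joining protein of the large subunit, was at 114 and Rpl41, the shortest ribosomal protein, at 241 FPKM.

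**Figure D1:**
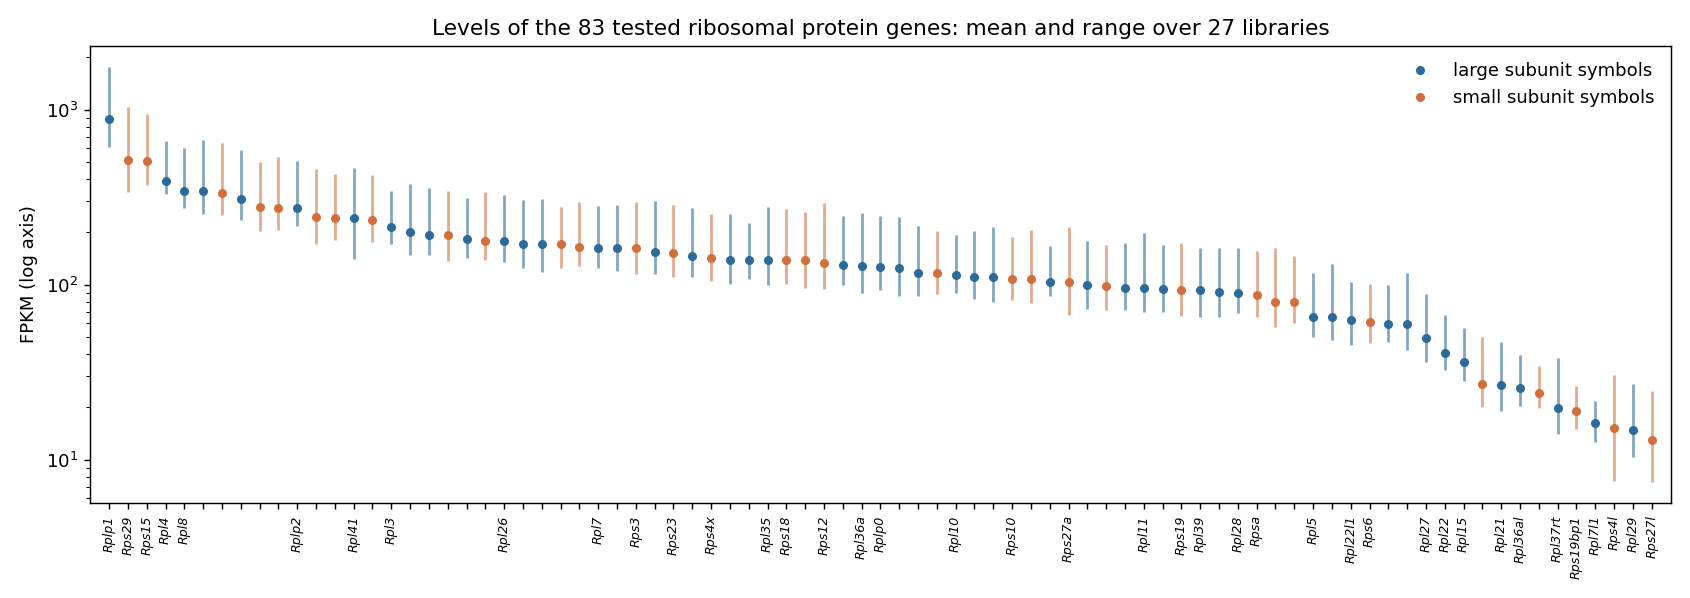
Each point is the mean FPKM (log axis) of 1 of the 83 tested genes over 27 libraries, and the bar runs from its lowest to its highest library. Rplp1 leads at 887 FPKM, most genes lie within the band from 20 to 400 FPKM, and Rps27l closes the row at 13 FPKM; only genes named in the text are labelled.

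Ribosomal protein genes have many processed copies in the mouse genome, and the way the authors' tool assigned fragments that match several places is not given in the sources used here. A median of 51.4% of the 50-base stretches of a tested gene's transcript (0 to 94.3%) was found without a mismatch elsewhere in GRCm39. In 43 of 83 genes the share was above 50%, with 94.3% for Rpl10, 90.4% for Rps12 and 3.5% for Rps3. Spearman's rho between this share and the mean FPKM was 0.125 across the 83 genes, and between length and mean FPKM it was -0.383. Levels of single genes with a high share are therefore uncertain, Rpl10 and Rps12 included.

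Of the 7 genes that were not tested, Rpl10l and Rps27rt were listed at 0 in every library. Rps23rg1 had a mean of 0.0658, Rpl3l of 0.139, Rpl39l of 0.166, Rpl32l of 0.899 and Rps27 of 0.975 FPKM. Rpl10l, Rpl39l and Rpl3l are known from testis and muscle, and in these blocks each stood far below its partner, Rpl10 at 114, Rpl39 at 92.6 and Rpl3 at 213 FPKM. Rps27 is a protein of the small subunit in all cells, yet its row, between 0.634 and 1.73 FPKM, lay below that of its paralog Rps27l (7.46 to 24.6 FPKM). In Rps27, 27.6% of the 50-base stretches occur elsewhere, and the part of shared fragments in its low value was not tested.

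The remaining paralogs were expressed beside their partners. Rpl22l1 was the only paralog of these pairs with a mean above its tested partner, at 62.4 FPKM against 40.9 FPKM for Rpl22. Rpl36al was at 25.7 FPKM against 127 FPKM for Rpl36a. For Rpl7l1, named after Rpl7, the mean was 16.2 FPKM against 163 FPKM, and for Rps4l it was 15.1 FPKM against 142 FPKM for Rps4x, the copy on the X chromosome. Of the transcripts of these paralogs, 59.7% of the stretches of Rpl22l1 were found elsewhere, 25.7% of Rpl36al, 14% of Rpl7l1 and 10.9% of Rps4l.

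Across libraries the genes rose and fell together. Each of the 83 genes was correlated with the mean log2(FPKM + 1) of the other 82 over the 27 libraries, which share 14 mice, and the median Pearson r was 0.969. In 80 genes r was at least 0.8. Among the 12893 other tested genes the median r with the mean of the 83 was 0.111, and 4.15% reached 0.8. The mean of the large subunit genes and that of the small subunit genes had an r of 0.997. The mean over the 20 genes with under 30% of shared stretches and that over the other 63 had an r of 0.989. The 12 tested genes with the pyrimidine run at the annotated first base had a median r of 0.965, and the 50 tested genes with an entry but no such run 0.97. All of these describe the same libraries, whose depth and length trend they share.

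Only Rps4l stood far outside the common pattern, with an r of 0.261. Rps19bp1 at 0.724 and Rpl7l1 at 0.741 were also below 0.8. Above them the values rose without a clear break, from Rpl22l1 (0.814) and Rps27l (0.841) to Rpl15 (0.852) and Rpl41 (0.87). Rps19bp1 is no part of the ribosome, and Rps4l, Rpl7l1, Rpl22l1 and Rps27l are paralogs, while Rpl15 and Rpl41 are neither. A library's values also followed transcript length: without the 83 genes, the Spearman correlation between a library's deviation from the mean and gene length ran with the ribosomal score at r = -0.886 over 27 libraries. When the trend on length was removed from each library, the median r of the 83 genes was 0.867 and 66 of them kept at least 0.8. Rps19bp1 then had an r of -0.291, Rps4l of -0.255, Rpl36al of 0.095 and Rpl22l1 of 0.135.

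**Figure D2:**
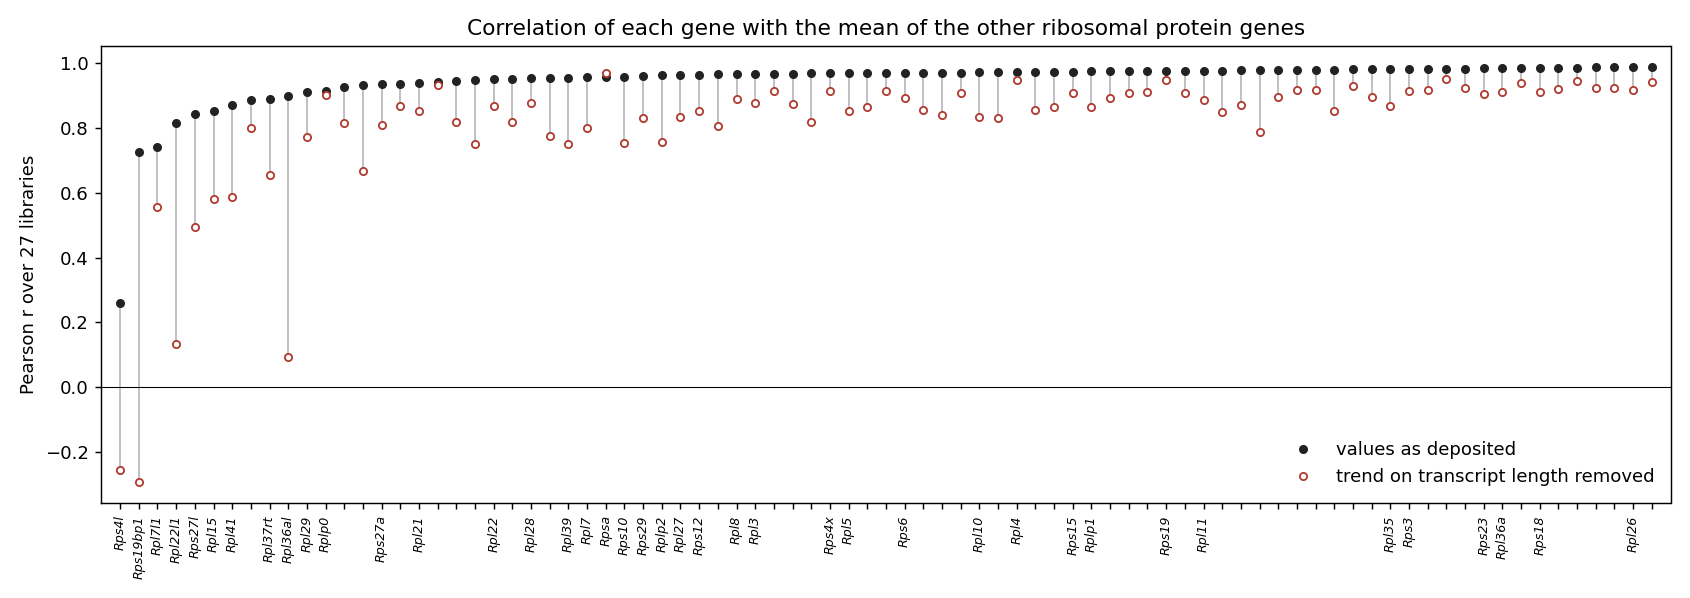
Pearson r (vertical axis) of each of the 83 genes with the mean log2(FPKM + 1) of the other 82 over 27 libraries. Filled points use the values as deposited (median 0.969), open points the values after the trend on transcript length was removed from each library (median 0.867), Rps4l and Rps19bp1 lie lowest in both, and only genes named in the text are labelled.

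Rps4l, which moved least with the others, had the highest correlation between hemispheres. In FPKM per library, with the injected hemisphere first, it was 23.2 and 27.3 in mouse J, 11.8 and 9.99 in L, 17.1 and 14.9 in M, and 13.8 and 11.2 in AH, all given vehicle. In R33-treated mice it was 14.4 and 15 in K, 13.5 and 19.7 in N, 17 and 11.6 in O, 15.6 and 14.8 in AD, and 13.1 in the injected hemisphere of AE. In R55-treated mice it was 15.7 and 14.9 in P, 16.6 and 30.6 in Q, 8.93 and 7.58 in R, 14.2 and 14.1 in AA, and 11.1 and 9.33 in AB. Both hemispheres were high in J and low in R, those of Q, N and O lay further apart, and the 3 treatments overlapped. Over the 13 mice with both hemispheres, the r between hemispheres was 0.77 for Rps4l, against a median of 0.22 for the 83 genes and 0.34 for all tested genes, and no other gene of the 83 reached 0.5. Its SD over the 14 mice was 0.39 on the log2 scale, the largest of the 83, followed by Rps29 with 0.285 and Rps12 with 0.269. The smallest SDs were those of Rpl7l1 (0.129), Rps19bp1 (0.134) and Rpl22 (0.142). The median over the 83 genes was 0.225, and over all tested genes 0.143.

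Of the genes outside the set, those most like it over the 27 libraries were Fau (r = 0.974), Rack1 (0.971), Eef1b2 (0.967), Mrpl52 (0.967) and Ndufb9 (0.961). Fau encodes a ribosomal protein of the small subunit whose symbol the rule does not catch, Rack1 sits on the small subunit, and Eef1b2 is an elongation factor subunit. Mrpl52 belongs to the mitochondrial ribosome and Ndufb9 to respiratory complex I. Their transcripts measure from 412 bases (Mrpl52) to 1933 bases (Eef1b2), all below the median of tested genes. A list of 19 other mRNAs known to carry TOP letters, among them elongation factors, Tpt1 and Npm1, had an r of 0.988 with the 83 genes over 27 libraries, and 0.959 with the length trend removed. For 78 mitochondrial ribosomal protein genes, the values were 0.85 and 0.176. For 27 genes of ribosome assembly they were 0.653 and 0.168, and for 14 genes of the mTOR arm -0.34 and 0.066.

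Cell type markers also varied with the set across these bulk blocks, where fewer cells of a type and less RNA per cell cannot be told apart. As a check of the tissue label, the 5 neuron markers (Rbfox3, Snap25, Syt1, Slc17a7 and Gad1) were all detected and summed to 1990 to 3200 FPKM per library. Over the 27 libraries, r with the ribosomal mean was -0.485 for neuron, 0.489 for astrocyte, 0.547 for microglia and -0.371 for endothelial markers. With the length trend removed the values were -0.422, 0.688, 0.715 and -0.439. For oligodendrocytes r was -0.028, and -0.001 with the length trend removed. For their precursors it was -0.302, and turned to 0.269 with the length trend removed. The 5 microglia markers summed to 185 to 530 FPKM and the 4 astrocyte markers to 213 to 856 FPKM, with overlap between all groups, and all listed markers of these 6 cell types were detected. The red blood cell genes Hba-a1 and Hbb-bs were listed at 0 in every library. The endothelial mean log2 value was 2.5 to 3.17 in libraries of mice with a 2-letter label and 3.2 to 4.52 with a 1-letter label. For microglia it was 5.54 to 6.19 and 4.97 to 5.85, and for neurons 8.12 to 8.29 and 7.76 to 8.38. The 2-letter mice AH (vehicle), AD and AE (R33), and AA and AB (R55) had ribosomal means of 6.7, 7.3, 6.85, 6.96 and 6.88. The 1-letter mice had 6.5 to 6.91. The part of these cell types in the ribosomal values, or of the label in these correlations, was not tested.

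The score of a library, the mean log2(FPKM + 1) over the 83 genes, ran from 6.45 to 7.65. In the injected hemisphere it was 6.54, 6.72, 6.73 and 6.77 after vehicle, then 6.54, 6.59, 6.79, 6.85 and 7.65 after R33, and 6.45, 6.52, 6.77, 6.77 and 7.02 after R55. In the contralateral hemisphere it was 6.46, 6.62, 6.66 and 7.09 after vehicle, then 6.53, 6.70, 6.72 and 6.94 after R33, and 6.60, 6.86, 6.91, 7.0 and 7.32 after R55. The 6 groups overlapped. By the gap to the nearest library of the group, only the injected AD library stood apart in this score, and the libraries of Q and J described next did not. In the injected library of mouse AD (R33) 82 of the 83 genes were above every other library of the group, where 43.0% of all tested genes were, and the median gap to the mean of the others was 0.99 on the log2 scale. The contralateral library of mouse Q (R55) led its group in 79 genes against 31.9% of tested genes, and that of mouse J (vehicle) in 82 genes against 43.7%. In the AD library the correlation of other genes' deviations with length was -0.68, in the Q library -0.69 and in the J library only -0.13. Rplp1 shows the size of this step, with 1760 FPKM in the injected AD library and 715 to 896 FPKM in the other injected R33 libraries.

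**Figure D3:**
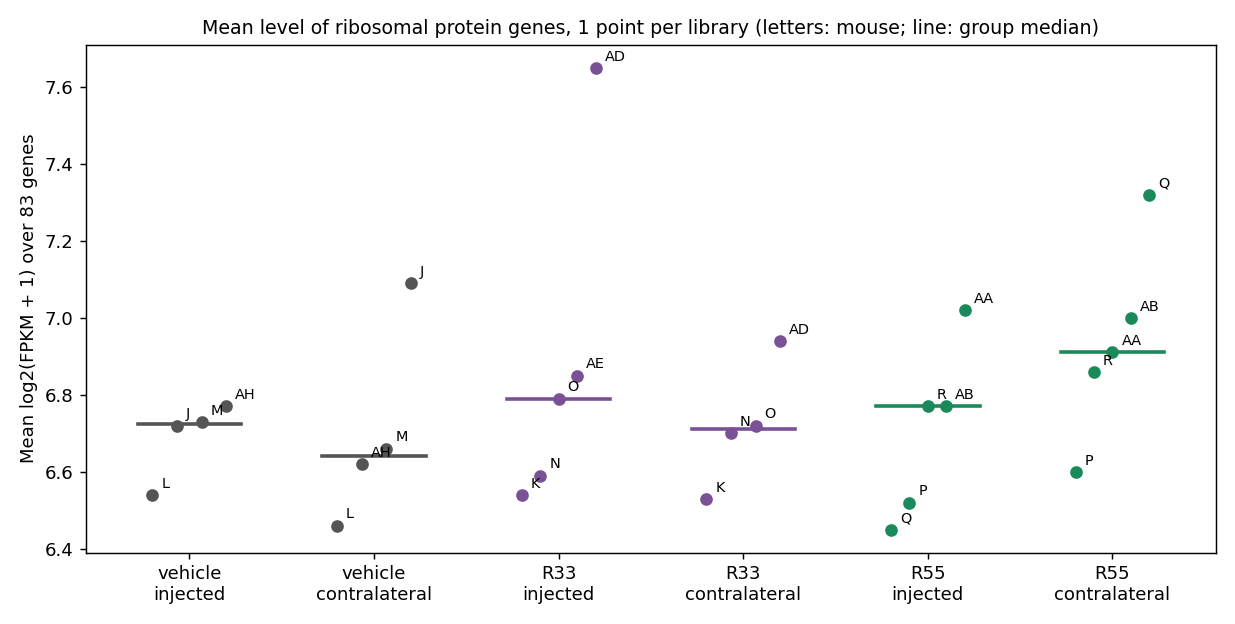
Each point is the mean log2(FPKM + 1) over the 83 genes in 1 library, grouped by treatment and hemisphere, with the letters of the mouse and a line at the group median. The ranges of all 6 groups share the stretch from 6.6 to 6.77, and the injected library of mouse AD at 7.65 and the contralateral library of mouse Q at 7.32 stand highest.

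Some mice had a wide gap between their hemispheres. Over 13 mice the r of the score between hemispheres was 0.2. The injected hemisphere was higher in 7 mice and lower in 6. In mouse Q it was 0.87 lower on the log2 scale, with all 83 genes lower, and in mouse AD it was 0.71 higher, with all 83 genes higher. In the remaining 11 mice the difference lay between -0.37 and 0.15. With the length trend removed, the difference was -0.28 in Q and 0.29 in AD.

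**Figure D4:**
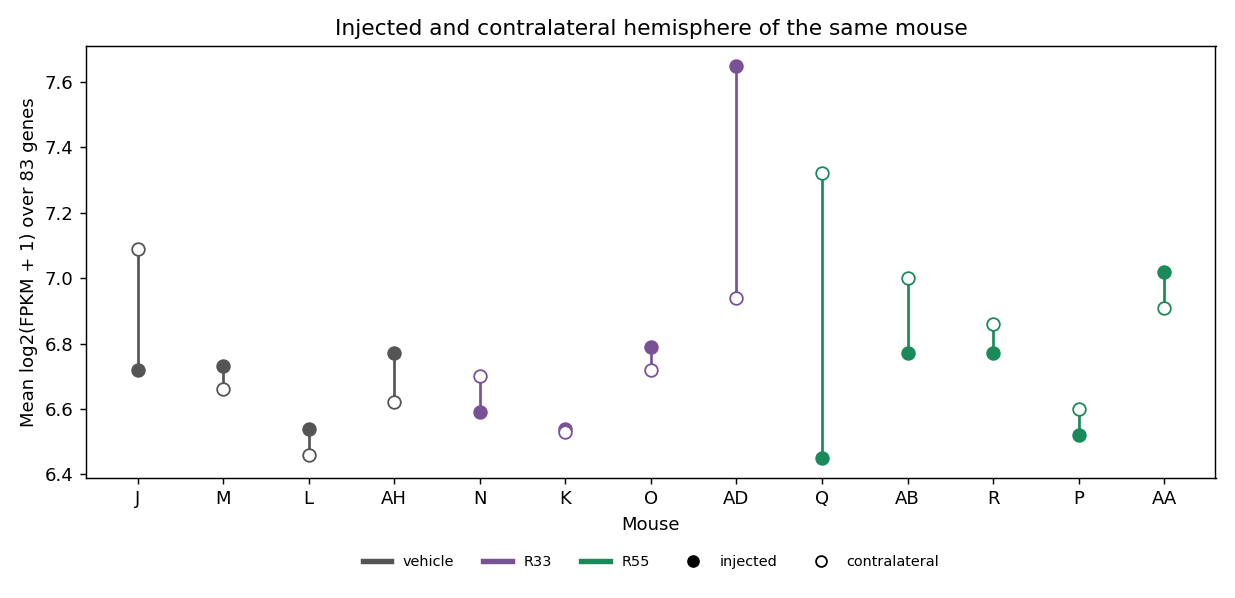
Mean log2(FPKM + 1) over the 83 genes in the injected (filled) and contralateral (open) hemisphere of the 13 mice with both, coloured by treatment and joined by a line. Mice Q and AD show the widest gaps, 0.87 and 0.71, in opposite directions.

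R55 against vehicle asked whether the compound changed these mRNAs within a day. No ribosomal protein gene passed the test, although nearly all estimates leaned the same way. In limma on log2(FPKM + 1) with treatment and hemisphere as factors, 0 of 83 genes had an adjusted p under 0.05, where 0.00771% of all tested genes did, and 1 of 83 had an unadjusted p under 0.05, where 8.45% did. Limma voom on the recovered fragments called 0 genes as well, with 1 at an unadjusted p under 0.05. The fold change was above 0 in 81 and below 0 in 2 genes, against 60.2% above 0 among all tested genes. The median log2 fold change was 0.129, against 0.026 over all tested genes, while the median SE of a gene was 0.136. The genes share their libraries and moved together, so the 81 are not separate observations. With the length trend removed the median was 0.032 with 68 genes above 0, and without the contralateral library of mouse Q it was 0.075 with 81 above 0.

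Rpl7l1 had the smallest p of the set in this comparison. Averaged over the hemispheres of each mouse, it was 16.7, 14.6, 13.5 and 14.7 FPKM in the vehicle mice J, L, M and AH. After R55 it was 15.3, 17.0, 15.7, 18.7 and 17.6 FPKM in P, Q, R, AA and AB. Vehicle mouse J lay above 2 of the R55 mice, so the groups overlapped. The log2 fold change was 0.166 ± 0.07 (SE), with an unadjusted p under 0.05 and an adjusted p of 0.557 in limma. With 1 value per mouse, or with the correlation within mice modelled, none of the 83 genes had an unadjusted p under 0.05, and the smallest adjusted p of the set was 0.918 and 0.9 in limma. The share of all tested genes at that unadjusted p in these fits is not given here, so this count cannot be set against it. Rps27l, described as a target of p53, followed at 0.226 ± 0.146 (adjusted p = 0.631 in limma), and Rpl26 at 0.182 ± 0.136 (adjusted p = 0.66). The 2 genes below 0 were Rps4l with -0.187 ± 0.198 and Rpl41 with -0.014 ± 0.178.

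Mean levels by mouse show how small these differences were beside the spread. Rplp1 was at 842 ± 91.2 FPKM (SD, n = 4 mice) after vehicle and 900 ± 134 (n = 5) after R55. Rps6 was at 57.4 ± 7.26 and 62.0 ± 5.44 FPKM. For Rpl5 the values were 60.8 ± 7.22 and 67.0 ± 5.64, and for Rps27a they were 92.4 ± 20.2 and 104 ± 8.92 FPKM. Rpsa was at 80.5 ± 9.66 and 91.2 ± 15.1, Rps3 at 148 ± 24 and 164 ± 15.1, and Rpl41 at 237 ± 40.0 and 242 ± 45.6 FPKM. In all 83 genes the 95% interval of the log2 fold change stayed between -0.59 and 0.53. These intervals come from the main fit, which counts both libraries of a mouse as separate.

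R33 against vehicle also left every ribosomal protein gene below the threshold. In limma 0 of 83 genes had an adjusted p under 0.05 (0.00% of all tested genes), and 0 had an unadjusted p under 0.05, where 5.87% of tested genes did. Limma voom gave 0 for both. Fold changes were above 0 in 82 genes and below 0 in 1, against 57.5% above 0 among tested genes, with a median of 0.117 against 0.018. Without the injected library of mouse AD the median was 0.010 and 50 genes were above 0, without both libraries of AD it was -0.021 with 30 above 0, and over mice with a 1-letter label it was -0.052 with 6 above and 77 below 0. With the length trend removed it was 0.027 with 63 above 0. Rplp1 was at 911 ± 280 FPKM (SD, n = 5 mice) after R33, a mean that includes 1390 in mouse AD, and the other R33 mice were at 662, 776, 832 and 896 FPKM. Rps6 was at 64.3 ± 12 FPKM. The smallest p were those of Rpl7l1 (0.144 ± 0.071, adjusted p = 0.834 in limma), Rps27l (0.288 ± 0.15, adjusted p = 0.835) and Rps27a (0.225 ± 0.161, adjusted p = 0.85). Only Rps4l was below 0, at -0.043 ± 0.203. Both comparisons use the same vehicle mice, so their directions are not separate evidence.

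Rps27l illustrates the overlap. Its mean over hemispheres was 15, 9.36, 12.3 and 8.71 FPKM in the vehicle mice J, L, M and AH. In the R33 mice it was 10.9, 12.5, 14.6, 18.8 and 13.3 FPKM in K, N, O, AD and AE, and in the R55 mice 11.7, 13.9, 12.1, 15.9 and 12.7 FPKM in P, Q, R, AA and AB. Vehicle mouse J exceeded all but 1 mouse of each treatment.

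R55 and R33, given at the same concentration and measured at the same time, did not differ detectably in these genes. In limma 0 of 83 genes had an adjusted p under 0.05 (0.00% of tested genes), 0 had an unadjusted p under 0.05 (1.15% of tested genes), and voom gave 0 for both. The fold change was above 0 in 55 and below 0 in 28 genes, against 53.4% above 0 among tested genes, with a median of 0.011 against 0.005. The 95% intervals of R55 against R33 stayed between -0.54 and 0.38 on the log2 scale over the 83 genes, with a median interval from -0.26 to 0.28, and 1 of the 83 intervals reached beyond 0.5 in either direction. They come from the fit that counts both libraries of a mouse as separate. The direction of the median changed with single libraries, from 0.119 (82 genes above 0) without the injected AD library to -0.044 (74 below 0) without the contralateral Q library. Above 0, the smallest p were those of Rps19bp1 (0.047 ± 0.079), Rps15 (0.079 ± 0.147) and Rpl27 (0.057 ± 0.125). Below 0 they were those of Rps4l (-0.144 ± 0.192), Rps27l (-0.062 ± 0.141) and Rps6 (-0.043 ± 0.109).

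**Figure D5:**
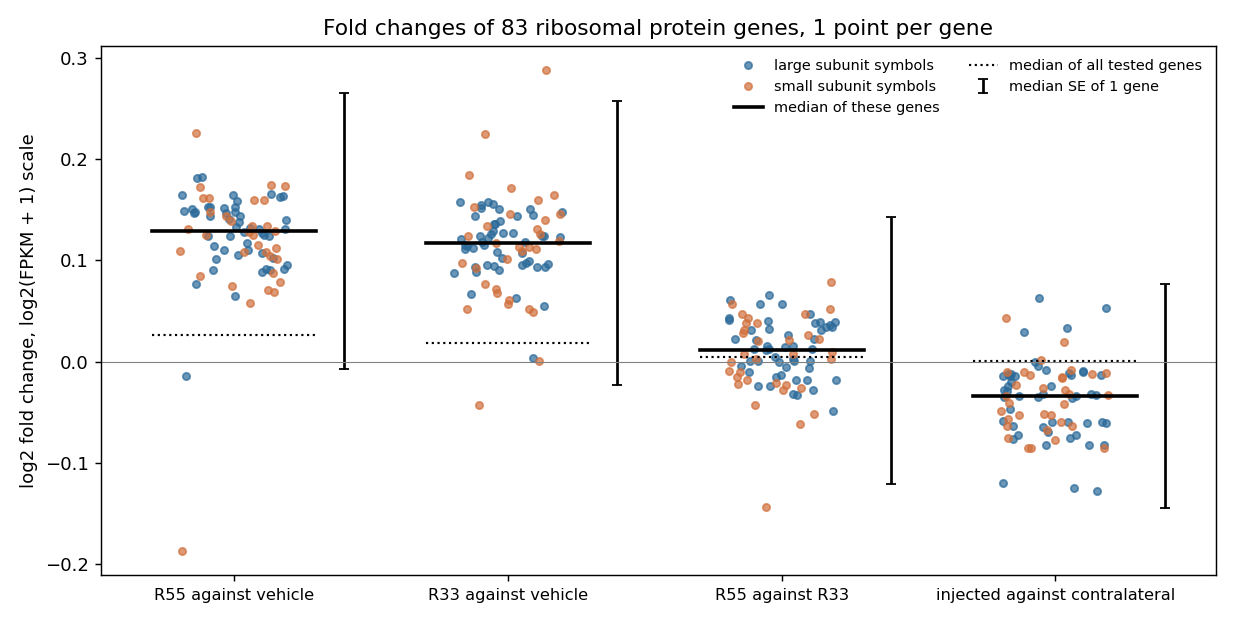
Log2 fold changes of the 83 genes in the 4 comparisons, 1 point per gene, with the median of these genes (solid), the median of all tested genes (dotted) and a bar of plus and minus the median SE of a gene. The points sit tightly around 0.129, 0.117, 0.011 and -0.034, and each of these medians is smaller than the median SE.

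Injected against contralateral compared the hemispheres over all 3 treatments, so in R33 and R55 mice compound and surgery cannot be told apart. In the 4 vehicle mice the score of the injected hemisphere minus that of the contralateral was -0.37 in J, 0.09 in L, 0.07 in M and 0.15 in AH. In limma 0 of 83 genes had an adjusted p under 0.05 (0.00% of tested genes) and 0 an unadjusted p under 0.05, where 3.47% of tested genes did, and voom gave 0 for both. The fold change was above 0 in 7 genes and below 0 in 76, against 49.3% below 0 among tested genes, with a median of -0.034 against 0.001. With the length trend removed 38 were above and 45 below 0, with a median of -0.006. The genes with the smallest p below 0 were Rpl21 (-0.128 ± 0.109), Rpl22l1 (-0.12 ± 0.11) and Rpl41 (-0.125 ± 0.145). Those above 0 were Rpl7l1 (0.053 ± 0.057), Rplp0 (0.063 ± 0.12) and Rps27l (0.043 ± 0.119). Without the injected AD library the median was -0.100 with 82 genes below 0, and without the contralateral Q library it was 0.006 with 47 above 0.

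Within single hemispheres the medians differed from those over both. For R55 against vehicle the median log2 fold change was 0.017 in the injected hemisphere (53 genes above 0, against 54.8% of tested genes) and 0.241 in the contralateral hemisphere (82 above 0, against 60.9%). For R33 against vehicle it was 0.193 in the injected hemisphere (82 above 0, against 52.4%) and 0.019 in the contralateral (60 above 0, against 59.6%). For R55 against R33 it was -0.174 in the injected hemisphere (82 below 0, against 50.6%) and 0.224 in the contralateral (82 above 0, against 54.9%). The injected R33 group holds the AD library and the contralateral R55 group the Q library, and the median of R55 against R33 was 0.014 in the injected hemisphere without mouse AD and 0.127 in the contralateral without mouse Q. For R33 against vehicle in the injected hemisphere the median was 0.0 without mouse AD, with 42 genes above 0, and 0.282 without mouse K. With the length trend removed the medians for R55 against vehicle were 0.010 (injected) and 0.054 (contralateral), for R33 against vehicle 0.089 and -0.035 (18 above and 65 below 0), and for R55 against R33 -0.073 and 0.095. No gene of the 83 had an adjusted p under 0.05 in any of these limma fits, where 0.00% of tested genes did. Rpl37rt alone had an unadjusted p under 0.05, in the contralateral hemisphere for R55 against vehicle (adjusted p = 0.413 in limma), where 11.5% of tested genes did, and for R55 against R33 (adjusted p = 0.996), where 2.03% did. These counts of 1 rested on single mice. For R55 against vehicle it was 56 genes without mouse J, where 19.4% of tested genes passed, 38 without P (15.2%) and 0 without Q (8.12%), and for R55 against R33 it was 33 without P (6.09%), 10 without AD (7.24%) and 0 without Q (1.41%). In the other fits 0 of the 83 did, against 1.09% of tested genes for R55 and 1.84% for R33 in the injected hemisphere, 2.96% for R33 in the contralateral, and 3.91% for R55 against R33 in the injected hemisphere. The interaction of R55 and hemisphere had a median of -0.231 with 82 genes below 0, against 58.3% of tested genes, and 0 genes called, with 0 at an unadjusted p under 0.05 against 1.84% of tested genes. Without the contralateral Q library its median was -0.132 with 74 below 0, and with the length trend removed it was -0.053 with 60 below 0.

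The medians of the subunits lay close together, and their difference was not tested. In R55 against vehicle the median was 0.131 over 50 large subunit genes (49 above 0) and 0.125 over 33 small subunit genes (32 above 0). For R33 the medians were 0.118 and 0.113, and for the hemispheres -0.033 and -0.034. The 20 genes with under 30% of shared stretches had a median of 0.124 for R55 and 0.115 for R33, beside 0.131 and 0.118 in the other 63.

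The related lists gave no called gene in the R55 and R33 comparisons with vehicle. Their counts stand beside 60.2% of tested genes above 0 and 8.45% at an unadjusted p under 0.05 for R55, and 57.5% and 5.87% for R33. Of 78 mitochondrial ribosomal protein genes 77 were above 0 after R55, with a median of 0.109 and 5 at an unadjusted p under 0.05 in limma, and 77 were above 0 after R33 with a median of 0.091. Mrpl18 had a log2 fold change of 0.23 ± 0.092 after R55 (adjusted p = 0.554 in limma). Of 19 other TOP mRNAs 17 were above 0 after R55 (median 0.091) and 19 after R33 (median 0.086). In ribosome assembly 23 of 27 genes were above 0 after R55 with a median of 0.072, and 3 above and 1 below 0 had an unadjusted p under 0.05 in limma. Those were Sbds (0.15 ± 0.063), which frees the large subunit for joining, Rrp9 (0.156 ± 0.064) and Gar1 (0.155 ± 0.073), which work in processing and modifying ribosomal RNA, and Polr1a (-0.145 ± 0.057), the large subunit of RNA polymerase I. In the mTOR arm 9 of 14 genes were below 0 after R55 with a median of -0.044, and 1 above and 2 below 0 had an unadjusted p under 0.05 in limma. Mtor itself was at -0.182 ± 0.08 (adjusted p = 0.571 in limma), and Tsc2, an inhibitor of the pathway, at -0.13 ± 0.051 (adjusted p = 0.552). After R33, 19 of 27 assembly genes were above 0 with a median of 0.023, and 2 above 0 had an unadjusted p under 0.05 in limma. In the mTOR arm 9 of 14 were below 0 after R33 with a median of -0.079, and 2 below 0 had such a p. With the length trend removed the R55 medians were 0.029 for both the mitochondrial and the TOP list, 0.027 for assembly and -0.031 for the mTOR arm. The R33 medians were then 0.026, 0.035, -0.01 and -0.043 for the mitochondrial, TOP, assembly and mTOR lists. The transcripts of the mTOR arm have a median length of 5277 bases and those of the mitochondrial list 1126 bases.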

How the data were processed

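RNA was sequenced from both hemispheres of 5xFAD mice given vehicle, R33 or R55. The authors extracted RNA, made stranded mRNA libraries and used HISAT2 to place the read pairs on GRCm39. They deposited FPKM per gene symbol in a table of 32 libraries. The counting tool and its annotation are not given in the sources used here. Of the libraries, 27 could be used and 5 were not used here, and 32 leftover header lines were dropped. Whole fragments were recovered from the deposited FPKM (100.0% whole within 0.01), which gave depth and gene length. 

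Genes averaging 1 FPKM or more were tested with limma 3.58.1 (R 4.3.3) on log2(FPKM + 1), which understates changes of low genes, with treatment and hemisphere as factors, an intensity trend, Benjamini-Hochberg adjustment over 12976 genes and a threshold of 0.05. Hemisphere fits had treatment alone, and an interaction was fitted. The fit was also run on simulated fragments with known changes, drawn separately for each library. That simulation held no correlation within mice and no length trend, so it cannot speak to either. Libraries of 1 mouse share the mouse label, which pairs the hemispheres, and the fitted correlation within mice was 0.347. The mouse was not a term of the main fit, so p-values count libraries of a mouse as separate. Intervals are 95% intervals of limma.

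Genes and lists were chosen with earlier results of these data known. Named were the 3 genes with the smallest p per direction and comparison, the 5 highest and lowest, the 3 most and least variable over mice, paralogs and their partners, symbols that are no ribosomal protein, the 5 most similar other genes, and by role Rplp0, Rplp1, Rplp2, Rpl5, Rpl11, Rps6, Rps27a, Rpsa, Rps3, Rpl4, Rpl10 and Rpl41. Rps12 (a high share) and Rps3 (a low share) were cited for their shared stretches after those values were seen. The same holds for genes named for the letters at their start, for a hemisphere (Rpl37rt) or from the related lists. Alternatives covered size factors, filters, pseudocount, trends on length and GC content (lowess, span 0.3, GC from GENCODE on GRCm39 for 97.6% of tested genes), voom, the series of the mouse label, the mouse as block, correlation or mean, and each mouse left out. Fits without the libraries of AD and Q were added after seeing the data. Python 3.11.15 with pandas 2.3.3 and scipy 1.17.1 did the rest.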

Additional observations from a re-analysis of the deposited data

Results flagged for a closer look

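In 42 sets of 4 or 5 libraries (a list's mean log2 value within a group) the highest and lowest library were compared with the rest by their gap as a share of the range. Of these, 7 stood beyond the critical value (0.71 for 5 libraries, 0.829 for 4), and chance alone marks about 1 in 20 groups. In 6 of them the library was the injected hemisphere of mouse AD, treated with R33, at 7.65 for the 83 genes (gap 0.721), 7.62 for the large subunit, 7.69 for the small subunit, 6.99 for the other TOP mRNAs, 4.81 for mitochondrial ribosomal proteins and 3.98 for ribosome assembly. These lists share libraries and, in part, genes, so the 6 are not separate observations. The other was the injected hemisphere of vehicle mouse L, at 6.58 for the small subunit (gap 0.862), below the remaining 3 libraries of its group.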

How the results depend on the processing

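In 205 alternative fits no ribosomal protein gene had an adjusted p under 0.05 in limma, and the smallest adjusted p was 0.12 (0.256 in the 4 comparisons over both hemispheres). The share of all tested genes called in these fits is not given here. In the main fits it was 0.00771% for R55 against vehicle and 0.00% in every other comparison, so counts of 0 are no trait of this set. These counts of 0 say nothing on the direction, which moved with single mice. Leaving out each mouse in turn gave medians of 0.061 (without L) to 0.2 (without P) for R55 against vehicle, -0.021 (without AD) to 0.201 (without K) for R33 against vehicle, -0.072 (without K) to 0.146 (without AD) for R55 against R33 and -0.081 (without AD) to 0.029 (without Q) for injected against contralateral. In the contralateral hemisphere alone, R55 against vehicle ran from 0.145 (without Q) to 0.362 (without J), with 56 genes at an unadjusted p under 0.05 in the latter, where 19.4% of all tested genes were. Over mice with a 1-letter label the medians were 0.061, -0.052, 0.116 and -0.144 in the same order of the 4 comparisons. With the mouse as replicate block the hemisphere median was -0.041 (75 genes below 0), -0.014 with the length trend removed as well, and the interaction -0.231, and the block changed no call. Among named genes, without the injected library of AD the log2 fold change turned to 0.036 (Rps27l) and 0.044 (Rps6) for R55 against R33, and to -0.011 (Rplp0) and -0.018 (Rps27l) for the hemispheres. With 1-letter mice only it turned to 0.037 (Rps6, R55 against R33), -0.071 (Rplp0) and -0.105 (Rps27l, hemispheres). Over the fits that leave out a mouse, the value crossed 0 for Rps4l (-0.367 to 0.041 for R55, -0.195 to 0.184 for R33, -0.32 to 0.014 between them), Rpl41 (-0.09 to 0.1 for R55), Rps15 (-0.024 to 0.247), Rpl27 (-0.044 to 0.195), Rps27l (-0.149 to 0.038) and Rps6 (-0.122 to 0.06) for R55 against R33, and Rps27l (-0.016 to 0.112) for the hemispheres. The cause was not tested. The SD of the score over mice within treatments was 0.215.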
